A study of Mus musculus with 12 samples.

Results

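The TNF response of fibroblast-like synoviocytes labelled SoxC knockout was measured as the difference between SoxC_KO_TNF and SoxC_KO, which hold 6 of the series' 12 mRNA libraries, 3 in each group. Synoviocytes are the fibroblasts that line the joint cavity. Cells of all groups came from synovium of mice that the labels call SoxC mice. SoxC_KO cells have the genotype SoxC knockout and were given Ade5CMV-Cre, an adenovirus whose CMV promoter drives Cre recombinase. SoxC_KO_TNF cells received the same virus and recombinant human TNF at 10 ng/mL for 16 h. Control cells, used here only to set the response beside, were given Ade5CMV-eGFP without TNF (control) or with it (control_TNF). The labels give neither the alleles that Cre acts on, nor the time between virus and harvest, nor from how many animals or cultures the 3 libraries of a group were made. The p-values therefore measure only how these libraries vary, and that variation may be technical. Genes were kept where at least 3 of the 6 libraries reached a normalized count of 10, which left 17155 of 53341 genes. The change of a gene is the difference of the group means of log2(normalized count + 1), and it is given with the differences between libraries of the same replicate number.

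TNF is a cytokine made mainly by activated macrophages that drives synovial inflammation in arthritis. It binds the receptors TNFR1 and TNFR2, and the signal from TNFR1 frees the transcription factor NF-kB from its IkB inhibitors. NF-kB then switches on chemokines, cytokines and proteases, together with proteins such as A20 that shut the signal down again. Human TNF engages mouse TNFR1 well and mouse TNFR2 poorly. SOXC is the group of HMG-box transcription factors Sox4, Sox11 and Sox12, and the study set out to separate TNF-regulated genes that depend on them from those that do not.

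All 3 SOXC genes were still measured in the libraries labelled SoxC knockout, and knockout cells below means cells so labelled. Sox4 (chromosome 13, mm10, 28948919 to 28953713) stood at 1432, 1433 and 548 normalized counts in SoxC_KO replicates 1 to 3 and at 1020, 1086 and 601 in SoxC_KO_TNF. Controls without TNF held 4238, 4143 and 1857, above every knockout library. Sox11 was at 175, 157 and 26.8 without TNF and at 75.1, 104.5 and 29.5 with it, and Sox12 at 230, 194 and 259 without TNF and at 129.5, 159 and 86.5 with it. Controls without TNF held 269, 272 and 153 of Sox11 and 352, 342 and 162 of Sox12, and for both genes they overlapped SoxC_KO. For number 3 Sox12 was higher in SoxC_KO than in control. Only for Sox12 did the libraries with TNF lie entirely below those without. Exact two-sided permutation tests gave p = 0.6 for Sox4, p = 0.4 for Sox11 and p = 0.1 for Sox12, the last being the smallest that 3 libraries against 3 allow. Over the 16 single values compared in this way, these 3 genes and 13 marker sums, the smallest Benjamini-Hochberg adjusted p was 0.533 (exact permutation tests). None of these 3 genes passed the test over all genes. Reads outside the part that Cre removes would not check the knockout.

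Several libraries stood apart. Within these 6, the first principal component (62.9% of the variance) set SoxC_KO replicate 3 apart and the second (17.6%) SoxC_KO_TNF replicate 3. The 12 synoviocyte markers summed to between 192700 and 557600 normalized counts in every library, with the lowest sum in SoxC_KO_TNF replicate 3, and 0 of them passed (1 rose with the block). Hepatocyte markers summed to 5068 in SoxC_KO_TNF replicate 1, where albumin (Alb) was at 2690, and to between 3.87 and 72.4 in the other 5 libraries. The 10 skeletal muscle markers summed to 1385, 781 and 1546 in SoxC_KO replicates 1 to 3 and to 1484, 582 and 522 in SoxC_KO_TNF. Their largest part was Acta1, which was highest in SoxC_KO replicate 3 (1146). The muscle myosin gene Myh4 was high in both libraries numbered 1 (188 without TNF and 277 with it). Normalized totals were 19.59 to 23.11 M and the estimated depth 8.14 to 12.96 M read pairs.

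With TNF, 46 genes rose (0.268% of the genes tested) and 9 fell (0.0525%), 55 in all (0.321%), by limma at a Benjamini-Hochberg adjusted p under 0.05. Their changes ran from 0.89 to 3.50 on the log2 scale for those that rose and from -1.20 to -3.11 for those that fell. Over all genes tested the median change was -0.01, with 5% of genes below -0.66 and 5% above 0.91. Every one of the 55 moved in the same direction for each of the 3 replicate numbers, as did 16% of all genes upward and 17.2% downward. In none of the 55 did the libraries of the groups overlap, which by itself fixes the direction for each number. Such a separation was seen for 6.53% of all genes upward and 6.46% downward. With the replicate number as a block in the model, 337 genes rose (1.96%) and 189 fell (1.1%), 526 in all (3.07%), among them all 55. Calls with the block rest on reading same-numbered libraries as pairs, which the correlations given under the processing bear out poorly for numbers 1 and 2. Without single libraries the counts were 17 and 2 (SoxC_KO replicate 1), 27 and 5 (SoxC_KO replicate 2), 45 and 4 (SoxC_KO replicate 3), 12 and 2 (SoxC_KO_TNF replicate 1), 16 and 3 (SoxC_KO_TNF replicate 2) and 21 and 2 (SoxC_KO_TNF replicate 3). Without the 4 libraries numbered 3 they were 165 and 30, and without SoxC_KO_TNF replicate 1 and control_TNF replicate 2, the libraries with liver transcripts, 5 and 5. All 55 changes kept their sign in both of these last fits, as must follow where no libraries overlap. In bulk RNA, fewer cells of a type and less RNA per cell cannot be told apart.

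**Figure D1:**
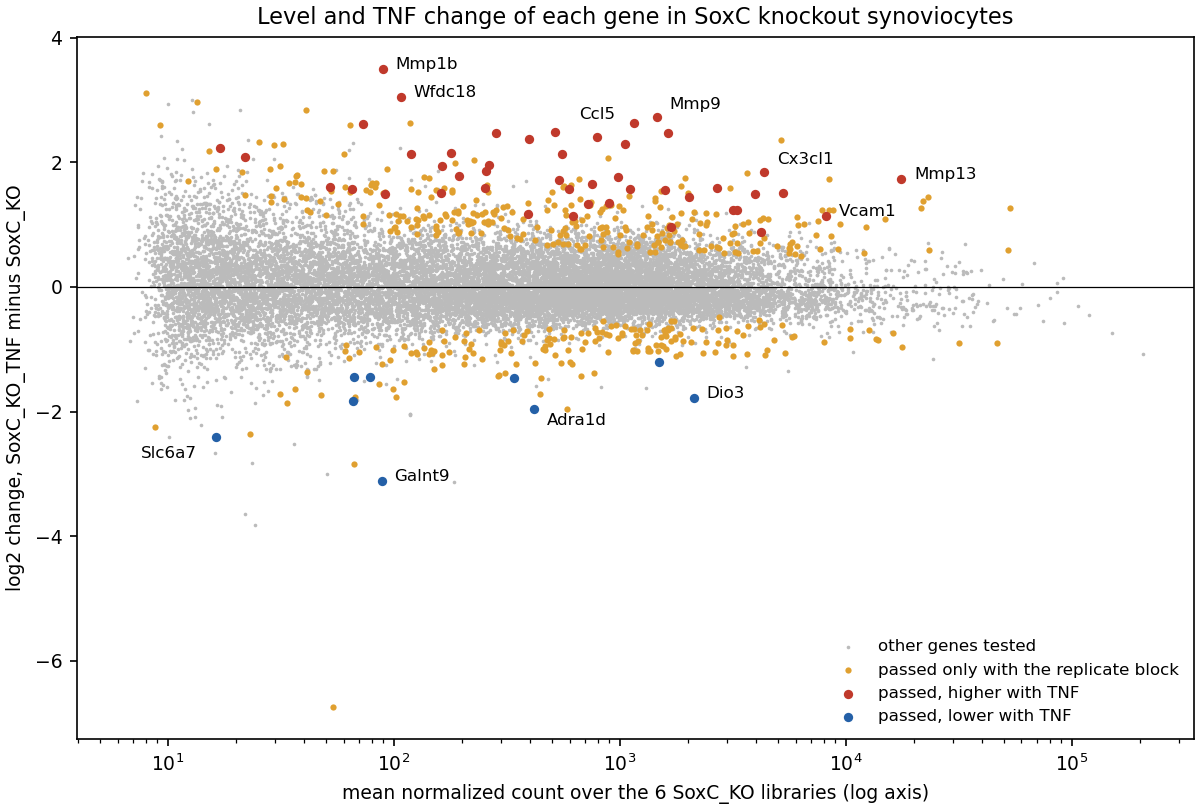
Each point is 1 of the 17155 genes tested, with its mean normalized count over the 6 SoxC_KO and SoxC_KO_TNF libraries on a log axis and its log2 change with TNF on the vertical axis. Red and blue points are the 46 genes that rose and the 9 that fell by limma, and orange points passed only with the replicate block. Mmp1b had the highest change (3.50) and Galnt9 the lowest (-3.11) among genes that passed without the block.

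The promoters of the genes that moved are shown because the signal of TNF ends at DNA. RefSeq start sites on GRCm38.p6 were matched for 32 of the 46 genes that rose, with 37 windows from 250 bases before to 50 bases after the start, and for 5 of the 9 that fell, with 7 windows. Each window was searched on both strands. The NF-kB consensus was found in 21.6% of the windows of genes that rose, against 5.31% of the windows of all genes tested. The AP-1 site TGANTCA stood in 29.7% against 5.61%, the TATA box TATAAA in 45.9% against 7.86%, the interferon response element in 10.8% against 3.2%, and the SOX4 site AACAAAG in 8.11% against 3.94%. In TGANTCA the N is any base, so TGAATCA, the match in Ccl9, counted beside TGACTCA and TGAGTCA. Among the 7 windows of genes that fell, 1 held the NF-kB consensus (Dio3) and 2 the SOX4 site. These shares are a description of letters in a window and no test was run on them. The sequences below are the 250 bases before the start, written 5′ to 3′ in the direction of transcription, with matches to all of these motifs except the TATA box in capitals. They were chosen for matches in the genes described next: the feedback gene Tnfaip3, the chemokines Ccl9, Ccl20, Cxcl10 and Cxcl3, the collagenase Mmp13, and Galnt9, the gene with the largest fall, whose RefSeq start used here lies inside the span of the gene in the deposited table (110544355 to 110621380 on chromosome 5). The window at the outer start of Galnt9 held no match to the motifs named here.
Tnfaip3 (chr10:19015411-19015660, minus strand; AP-1 site, then 2 NF-kB matches): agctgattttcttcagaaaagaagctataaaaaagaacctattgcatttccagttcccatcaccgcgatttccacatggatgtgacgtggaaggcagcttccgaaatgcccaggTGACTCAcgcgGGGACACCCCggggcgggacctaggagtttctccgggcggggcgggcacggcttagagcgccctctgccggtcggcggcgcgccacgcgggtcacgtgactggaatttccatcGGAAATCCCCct
Ccl9 (chr11:83578637-83578886, minus strand; AP-1 site, then NF-kB): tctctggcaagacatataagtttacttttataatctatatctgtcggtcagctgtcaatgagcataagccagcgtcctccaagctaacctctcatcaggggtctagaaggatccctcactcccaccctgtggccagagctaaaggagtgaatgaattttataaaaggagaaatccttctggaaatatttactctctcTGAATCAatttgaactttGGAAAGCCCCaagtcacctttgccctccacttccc
Ccl20 (chr1:83116516-83116765, plus strand; NF-kB): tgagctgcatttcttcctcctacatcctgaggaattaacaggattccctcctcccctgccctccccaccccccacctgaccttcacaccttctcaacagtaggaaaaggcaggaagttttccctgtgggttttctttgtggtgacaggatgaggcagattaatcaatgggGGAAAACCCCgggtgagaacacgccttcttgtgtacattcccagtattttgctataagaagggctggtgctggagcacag
Cxcl10 (chr5:92348890-92349139, minus strand; interferon response element, 2 NF-kB matches, AP-1 site): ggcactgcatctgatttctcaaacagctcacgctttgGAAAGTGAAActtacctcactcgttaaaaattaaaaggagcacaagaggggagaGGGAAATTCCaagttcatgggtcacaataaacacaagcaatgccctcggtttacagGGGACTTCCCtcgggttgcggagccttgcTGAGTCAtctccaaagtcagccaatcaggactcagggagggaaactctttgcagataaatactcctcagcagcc
Cxcl3 (chr5:90785851-90786100, plus strand; 2 overlapping NF-kB matches): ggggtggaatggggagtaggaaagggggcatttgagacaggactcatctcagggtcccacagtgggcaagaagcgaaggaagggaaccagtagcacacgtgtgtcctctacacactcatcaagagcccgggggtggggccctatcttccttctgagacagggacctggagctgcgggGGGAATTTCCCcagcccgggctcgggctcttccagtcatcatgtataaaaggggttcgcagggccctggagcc
Mmp13 (chr9:7272264-7272513, plus strand; interferon response element on the other strand, then AP-1 site): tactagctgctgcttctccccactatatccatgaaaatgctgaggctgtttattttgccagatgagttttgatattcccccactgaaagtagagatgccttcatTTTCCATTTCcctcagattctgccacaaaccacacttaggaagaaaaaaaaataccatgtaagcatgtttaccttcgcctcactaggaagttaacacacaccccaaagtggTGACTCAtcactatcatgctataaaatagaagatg
Galnt9 (chr5:110603255-110603504, plus strand; SOX4 site): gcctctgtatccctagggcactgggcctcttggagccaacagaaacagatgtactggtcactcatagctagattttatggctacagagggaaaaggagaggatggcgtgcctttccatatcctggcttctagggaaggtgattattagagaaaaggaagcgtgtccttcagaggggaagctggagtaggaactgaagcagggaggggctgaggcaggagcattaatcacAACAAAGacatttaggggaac

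Of the feedback genes of the pathway 4 rose, and the other 15 of the list did not pass. Tnfaip3, which encodes the ubiquitin-editing enzyme A20, was at 1440.2, 1588 and 1023 normalized counts in SoxC_KO replicates 1 to 3 and at 4356, 4239.5 and 3476 with TNF. The lowest library with TNF lay well above the highest without it (log2 change 1.59, SE 0.25, limma adjusted p = 0.0228). Tnip3, an A20-binding partner, went from 102, 106 and 115 to 414, 357 and 495 (1.95, limma adjusted p = 0.00469), so its libraries without TNF were close to one another and far from those with TNF. Birc3, the ubiquitin ligase cIAP2, went from 652, 695 and 382 to 1710.3, 1749.5 and 1500.0 (1.56), and Traf1, an adaptor that binds it, from 24.5, 21.7 and 29.5 to 90.6, 86.1 and 61.9 (1.61). These are the 4 that rose of the 19 genes listed as NF-kB inhibitors and feedback, and the median of the list was 0.70. With the block 9 rose, among them the IkB genes Nfkbie (1.31, limma adjusted p = 0.0576 without the block) and Nfkbia (0.78), Tnip1 (0.87), Tnfaip8 (1.10) and Tnfaip2 (0.60). Over all genes tested, 1.96% rose and 1.1% fell with the block. This list and those below were chosen with earlier results of these data known.

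Receptors and NF-kB subunits did not pass without the block. At an unadjusted limma p under 0.05, where 7.51% of all genes tested lay, were 3 of 24 genes of receptors and proximal signalling and 2 of 5 NF-kB subunits. Tnfrsf1a, the gene of TNFR1, was at 4385, 4316 and 6732 without TNF and at 3021, 3466 and 3159 with it (log2 change -0.65), and the groups did not overlap. Tnfrsf1b, the gene of TNFR2, had overlapping groups and a change of 0.16. The NF-kB subunit Nfkb1 was at 2540.5, 2471 and 1677 without TNF and at 4894, 4242 and 2934 with it (0.84), also without overlap. Rela, the subunit that carries the main activation domain, had overlapping groups with a change of 0.05. With the block Nfkb1 rose (limma adjusted p = 0.00321), Tnfrsf1a fell (limma adjusted p = 0.0374) and so did no other of the 24 genes of receptors and proximal signalling. Of the same 24, Cflar, an inhibitor of caspase-8, rose (1.05, limma adjusted p = 0.0235) with the block. Of the 5 NF-kB subunits, Nfkb1 was the 1 that passed with it. Tnf itself was low, at 26.4, 33.5 and 34.9 without TNF and 68.6, 97.7 and 78.6 with it, and passed only with the block (1.34, limma adjusted p = 0.0182). The added human protein gives no mouse transcript.

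Chemokines were among the genes with large rises. Ccl5, which draws T cells and monocytes, was at 341, 233 and 393 without TNF and at 1692, 2524 and 1746 with it, a rise for each number (2.31, 3.43 and 2.15 on the log2 scale). Cx3cl1, the membrane-bound fractalkine, went from 1959, 1878 and 1683 to 7686, 8841 and 4158, with the smallest rise for number 3. The ligand of CCR6, Ccl20, went from 2126, 1819 and 2234 to 5309, 5076 and 7178. None of these groups overlapped, as for all 46 genes that rose. Ccl9, a monocyte attractant with both an AP-1 and an NF-kB match in the sequence shown, was very even within groups, at 291, 298 and 309.9 without TNF and 895, 843 and 955 with it (log2 change 1.58, SE 0.19, limma adjusted p = 0.00619). Cxcl10, which draws CXCR3-bearing T cells, went from 787, 739.7 and 898 to 2332, 2569 and 2248. The neutrophil attractant Cxcl3 went from 2098, 1661 and 2103 to 3772, 4919 and 5195 (1.24). Reads of Cxcl10 and of Art3, which overlaps it on the other strand, cannot be told apart here.

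Of 13 CC chemokines tested 3 rose and 0 fell, with a median of 0.47 that was 1.0 without SoxC_KO replicate 3 and 0.97 without SoxC_KO_TNF replicate 1. Ccl3 joined them with the block (25.0, 15.8 and 72.3 without TNF, 165, 199 and 230.4 with it), with a change of 2.64 that was 3.24 without SoxC_KO replicate 3. Of 12 CXC and CX3C chemokines 3 rose and 0 fell, with a median of 1.17. With the block 8 rose (1.96% of all genes tested did), including Cxcl2 (1.75), Cxcl9 (1.73), Cxcl16 (1.10), Cxcl5 (0.60) and Cxcl1 (0.59). The change of Cxcl5, a neutrophil attractant, was small on the log2 scale: it stood at 43988, 45063 and 35500.0 without TNF and at 66148, 63441 and 58376 with it. The libraries of Cxcl5 did not overlap between the groups.

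Cytokines followed with 3 rises among 23 tested and a list median of 0.24. Il1a, an alarmin of the interleukin-1 family, was at 121, 161 and 181 without TNF and at 796, 689 and 1154 with it (log2 change 2.49, SE 0.28, limma adjusted p = 0.00469). Tslp, which acts on dendritic cells and innate lymphoid cells, went from 249.6, 263 and 237 to 1308, 1152 and 1534 (2.40). The colony-stimulating factor Csf2, known as GM-CSF, went from 277, 272 and 530.2 to 1283, 1494 and 2449.8 (2.29). SoxC_KO replicate 3 was the highest of its group for Csf2 and so was its counterpart with TNF. No library without TNF reached one with it, as for all 46 genes that rose. With the block 7 cytokines rose and 1 fell, against 1.96% and 1.1% of all genes tested. Il6, a central cytokine of synovitis, passed only there, with 5106, 5439.8 and 3523 without TNF and 9548, 9774 and 13800.0 with it (1.24, limma adjusted p = 0.00835 with the block and 0.0633 without). Csf3 (2.04) and Lif (1.12) rose with the block and Il16 fell (-0.95). Of 34 growth factors 1 rose, Bmp2, a bone morphogenetic protein, from 97.1, 80.9 and 72.4 to 289, 233 and 197 (2.84-fold). With the block 4 rose and 3 fell, among them the EGF receptor ligand Ereg (1.83, but 1.22 without SoxC_KO replicate 3) and, lower, Tgfb3 (-1.07) and Vegfd (-1.04).

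**Figure D2:**
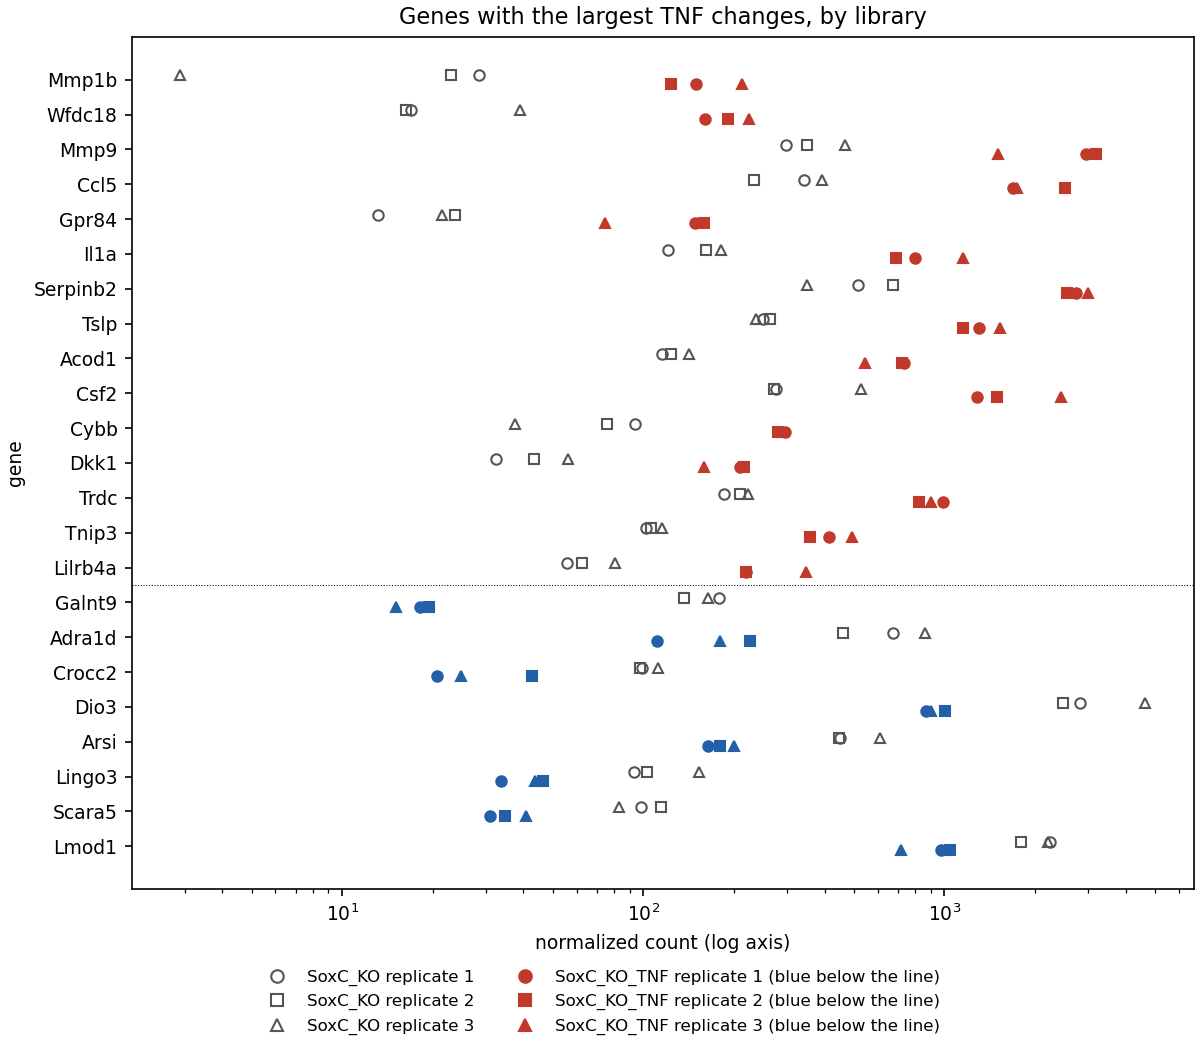
Normalized counts on a log axis in each of the 6 libraries for the 15 genes with the largest rises and the 8 with the largest falls that met the naming rule. Open symbols are SoxC_KO and filled symbols SoxC_KO_TNF, with circles, squares and triangles for replicates 1, 2 and 3. The rule admits only genes whose groups do not overlap, so open and filled symbols are apart by selection. Mmp1b in SoxC_KO replicate 3 lies at 2.9.

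Matrix-degrading enzymes held the largest rise that passed. Mmp1b, a mouse relative of interstitial collagenase, was at 28.5, 22.9 and 2.9 without TNF and at 149.7, 124 and 212 with it (log2 change 3.50, SE 0.63, limma adjusted p = 0.0477). SoxC_KO replicate 3 decided part of this size: for number 3 the difference was 5.77, for numbers 1 and 2 it was 2.35 and 2.38, and without that library the change was 2.58. Mmp1b is related to Mmp1a (2.85, passed only with the block) and overlaps Mmp12, so how reads were split among them is uncertain. The gelatinase Mmp9 went from 298, 349.7 and 469 to 2946, 3184 and 1503 (2.72). Its rise was smallest for number 3 (1.68 against 3.30 and 3.18). Mmp13, the collagenase that cleaves type II collagen of cartilage and whose promoter is shown above with an AP-1 site 35 to 29 bases before the start, went from 7192, 7906 and 9068 to 23981, 22767 and 35055 (1.74).

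Of 19 matrix metalloproteinases tested 3 rose and 0 fell. With the block 6 rose (1.96% of all genes tested did) and Mmp17 fell (-0.66). The block added the stromelysins Mmp10 (1168, 1320.3 and 2805 without TNF, 7252, 7006 and 11479 with it) and Mmp3 (24805, 25024 and 47946, then 71394, 68401 and 83655). Neither stromelysin had overlapping groups. The list median was 0.80, but 0.07 without SoxC_KO_TNF replicate 1. Several of these genes lie side by side: Mmp13, Mmp1b and Birc3 fall within 7272514 to 7873186 on chromosome 9 (mm10), and with the block Mmp3, Mmp1a and Mmp10 in the same interval. The same holds for Ccl5, Ccl9 and Wfdc18 within 83525778 to 83711348 on chromosome 11. Among aggrecanases, plasminogen activators and inhibitors 1 of 19 rose, Serpinb2, an inhibitor of plasminogen activators, from 516, 675 and 349.7 to 2734, 2559.5 and 3010.5 (2.48). Adamts9 (1.30), the aggrecanase Adamts4 (0.69) and Plau (0.53) rose with the block, and the metalloproteinase inhibitor Timp3 fell (-0.68).

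Enzymes that make inflammatory mediators split into those that passed and a larger group that passed only with the block. Acod1, which makes itaconate, was at 116, 124 and 142 without TNF and at 736, 721 and 544 with it (log2 change 2.37, SE 0.23, limma adjusted p = 0.00195). Ch25h, which makes 25-hydroxycholesterol, went from 1812, 1647 and 2207 to 3889, 4833 and 4619.5 (1.24), and it overlaps Gm26902 on the other strand. Dio3, the deiodinase that inactivates thyroid hormone, fell from 2816, 2485 and 4658 to 870.2, 1006 and 906 (-1.79). No library of either group crossed into the other for these 3 genes, as for all 55 that passed. Dio2, the deiodinase that activates the hormone, was at 1018, 1303 and 329.7 without TNF and at 2052, 1670.1 and 2245 with it, and rose only with the block (1.38, limma adjusted p = 0.0435). Its change was 0.78 without SoxC_KO replicate 3. With the block 8 of the 14 enzymes rose and 1 fell, against 1.96% and 1.1% of all genes tested. Those that rose included the nitric oxide synthase Nos2 (1.24), arginase Arg2 (1.67), Gch1 (1.29), Cyp7b1 (1.31) and the mitochondrial superoxide dismutase Sod2 (0.83). The list median was 1.04.

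Prostaglandin genes gave 0 calls among 16 without the block (limma), with 4 at an unadjusted p under 0.05, and 5 with it, all higher. Of all genes tested, 7.51% lay at an unadjusted limma p under 0.05 and 1.96% rose with the block. Ptgs2, the inducible cyclooxygenase, was at 15959, 19235 and 5703 without TNF and at 34288, 32435 and 21663 with it (1.26, limma adjusted p = 0.502 without the block and 0.00394 with it). The prostaglandin E synthase Ptges was at 4209, 4114 and 11526, then 9361, 10337 and 17052, so that SoxC_KO replicate 3 exceeded a pair of libraries with TNF although each number rose. The others were the receptors Ptger2 (1.16) and Ptgir (0.69) and the phospholipase Pla2g4a (0.87). Of 18 antioxidant genes and metallothioneins 0 passed by limma without the block (2 at an unadjusted p under 0.05) and 5 rose with it, Nqo1, Nfe2l2, Slc7a11, Txnrd1 and Srxn1 (0.54 to 0.79).

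Genes of innate sensing and of the interferon response rose in part. Gpr84, a receptor for medium-chain fatty acids on myeloid cells, went from 13.1, 23.7 and 21.5 to 148, 159 and 74.7 (2.62). Nlrp3, the sensor of an inflammasome, went from 123, 68.1 and 75.8 to 303, 310.1 and 283 (1.78), and Tlr2, a receptor for bacterial lipoproteins, from 1102, 1127 and 1025 to 3154, 3187 and 2518 (1.44). These 3 of 21 innate sensors rose, 0 fell, and the list median was 0.51. With the block Tlr3 (1.61), Nod2 (1.10) and Irak3 (0.85) also rose, as did 1.96% of all genes tested. Tlr3 rested partly on SoxC_KO replicate 3, which was at 78.2 against 405 and 508 in the other libraries without TNF, and its change was 0.76 without that library.

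Of 37 interferon response genes 2 rose, 0 fell and 33 had a change above 0, against 48.9% of all genes, with a list median of 0.54. Gbp2, a guanylate-binding protein of antimicrobial defence, had nearly the same rise for each number (1.51, 1.51 and 1.53), from 2884, 2908 and 2412 to 8196, 8276 and 6943. Gbp6 went from 429.8, 443 and 247 to 1098, 1164 and 1167 (1.66). It shares its position with Gm43302 (1.71), and the Gbp genes resemble one another, so single members are uncertain. With the block 10 rose (1.96% of all genes tested did), among them Gbp4, Gbp9, Gbp5, Gbp7, Gbp3 and Ifi47 (1.04 to 1.85). Without SoxC_KO replicate 3 the change of Gbp7 went from 1.37 to 0.61 and that of Gbp9 from 1.53 to 0.92. Antigen presentation genes gave 0 calls among 18 by limma (0 at an unadjusted p under 0.05, against 7.51% of all genes tested). Erap1 (0.81), a peptide-trimming enzyme, was the 1 that rose with the block. Of 19 adhesion molecules 1 rose, Vcam1, the ligand of the integrin VLA-4, from 5583, 5456 and 4424 to 10912, 11508 and 11453 (1.14, limma adjusted p = 0.00942). The median of the adhesion list was 0.59, and 0.22 without SoxC_KO replicate 3. E-selectin (Sele, 1.79) and the integrins Itga2 (1.58), Itgb3 (1.13) and Itgav (1.01) rose only with the block. Itgav had overlapping groups (5693, 7151 and 1457 without TNF, 10862, 9424 and 4756 with it). Without SoxC_KO replicate 3 its change was 0.30 and that of Sele 1.12. Complement and acute phase genes gave 0 calls among 23 by limma without the block (4 at an unadjusted p under 0.05). With it C3 (0.82), Cfb (0.60) and Steap4 (0.88) rose and C4b fell (-0.81).

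**Figure D3:**
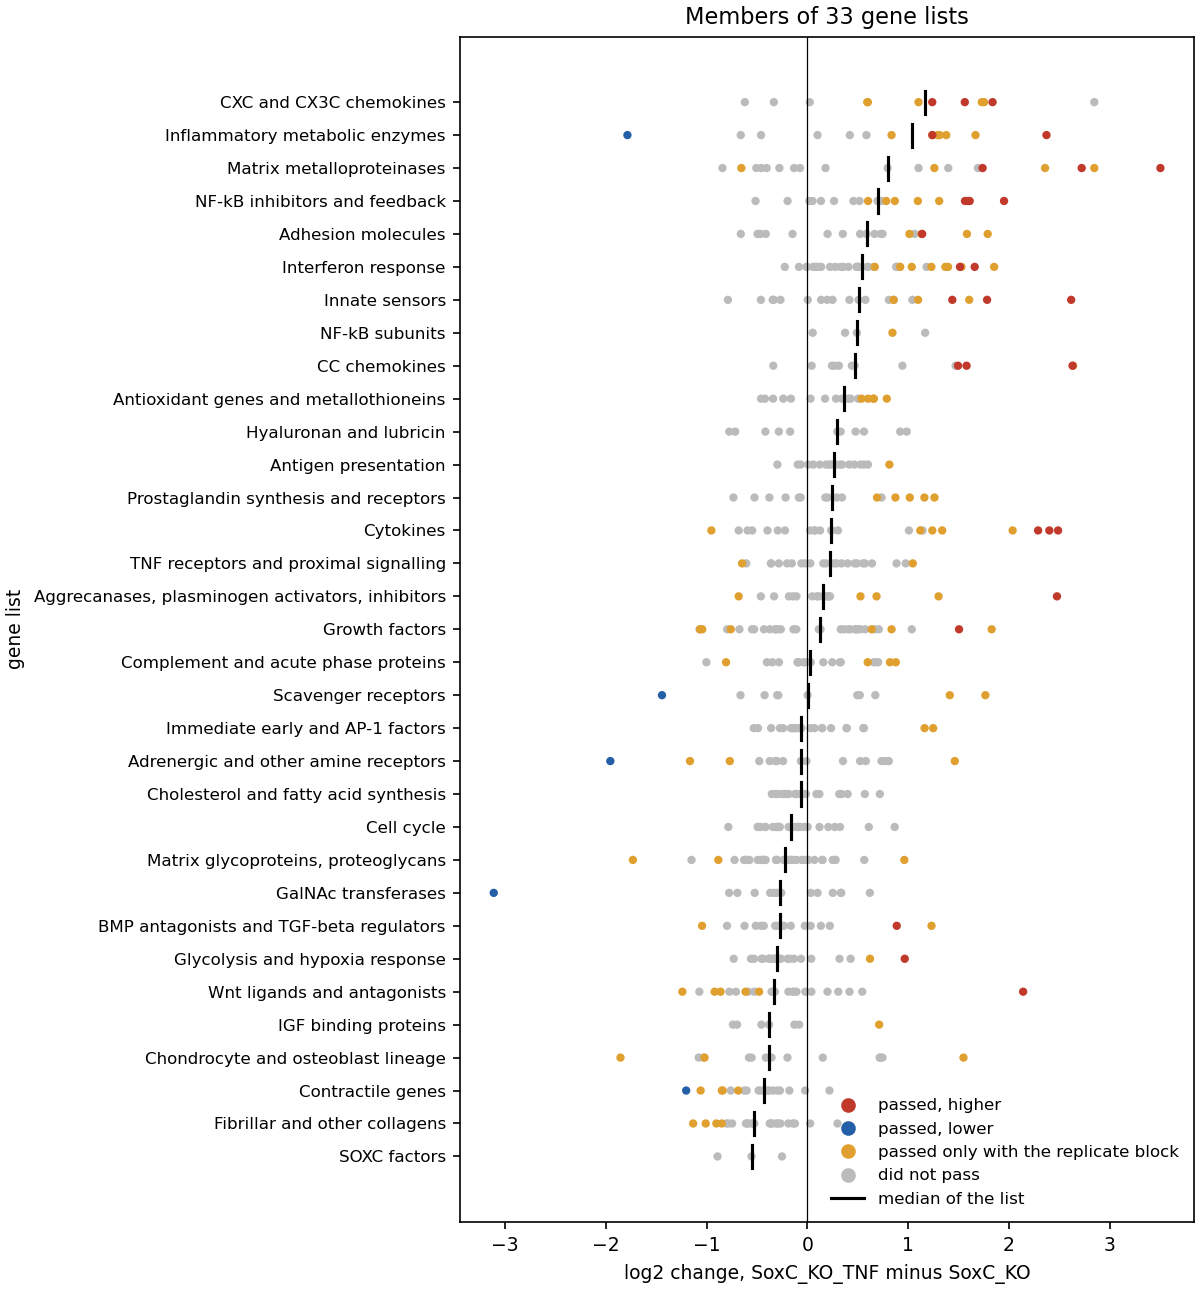
Log2 change with TNF of the tested members of 33 gene lists, 1 point per gene, with lists ordered by their median (black bar). Red and blue members passed by limma without the replicate block, orange members only with it, and grey members did not pass. The lists of CXC and CX3C chemokines, inflammatory metabolic enzymes, matrix metalloproteinases and NF-kB feedback genes lie at the top, with medians from 0.70 to 1.17, and the SOXC factors at the bottom with -0.55. Both ends of this order depend on single libraries. The median of the metalloproteinases was 0.07 without SoxC_KO_TNF replicate 1. That of the SOXC factors was -0.04 without SoxC_KO_TNF replicate 3 and -0.93 without SoxC_KO_TNF replicate 2.

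Some genes that rose are known mainly from blood cells. Cybb, the catalytic subunit of the phagocyte NADPH oxidase, went from 93.8, 76.0 and 37.6 to 297, 279.6 and 290.1 (2.14). Trdc, the constant region of the T cell receptor delta chain, went from 185, 209 and 222 to 987, 823 and 905 (2.13, limma adjusted p = 0.00146). Lilrb4a, an inhibitory receptor of myeloid cells that overlaps its relative Lilr4b, went from 55.8, 62.7 and 80.7 to 219.6, 219.7 and 347 (1.95). Ptpn22, a phosphatase of lymphocyte signalling (1.86), Blnk, an adaptor of the B cell receptor (1.57), and Icosl, a ligand for T cell costimulation (1.59), also rose. The 9 macrophage markers summed to 1378, 1515 and 3362 without TNF and to 1386, 1536 and 2812 with it (exact permutation p = 0.9), and 0 of the 5 tested passed. Most of the macrophage sum was Lyz2, at 860, 1002 and 2425 without TNF and 898, 1014 and 2172 with it. Csf1r was at 289, 275 and 670 without TNF and 292, 297 and 373 with it. The 6 T cell markers summed to between 22.95 and 38.65 without TNF and 34.16 and 41.31 with it, and the 4 B cell markers to at most 14.51 in any library. The pan-leukocyte phosphatase Ptprc (CD45) was at 5.66, 5.92 and 8.05 without TNF and at 10.4, 5.81 and 19.1 with it. The T cell receptor component Cd3e was listed at 0 in 4 of the 6 libraries and the B cell receptor component Cd79b in 5. Among the other T cell markers, Lck reached 23.8 in SoxC_KO_TNF replicate 3 and Cd8a 18.1 in SoxC_KO_TNF replicate 1. The part of blood cells in these rises was not tested. Neutrophil markers summed to between 556 and 1838 without TNF and 785 and 2041 with it. Most of these sums was Camp, at 624.5, 493 and 1555 without TNF and 659, 828 and 1578 with it. S100a8 was at 50.9, 56.2 and 272 without TNF and at 123, 137 and 445 with it. It rose with the block only (1.08, but 1.85 without SoxC_KO replicate 3 and 0.49 without SoxC_KO_TNF replicate 3). S100a9 was listed at 0 in all 6 libraries.

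Other genes that rose carry different roles. Wfdc18, a small secreted protein with a WAP domain, went from 16.9, 16.3 and 38.9 to 161, 190.4 and 224 (3.05). Dkk1, a secreted antagonist of Wnt signalling linked to bone loss in arthritis, went from 32.5, 43.4 and 56.3 to 209.7, 216 and 159 (2.14, limma adjusted p = 0.0079). Egln3, a prolyl hydroxylase that marks HIF for decay, went from 1079, 1027 and 1354 to 2196, 2249 and 2265 (0.97). In each of these the libraries with TNF lay above all those without, as for all 46 genes that rose. Others of the 46 were Gm16685 (2.47), which overlaps Il7 on the other strand, the SMAD partner Foxh1 (2.23), the actin-severing protein Scin (2.09), the interleukin-13 decoy receptor Il13ra2 (1.77), the flavin monooxygenase Fmo1 (1.49), Ttc39c (1.35), Gsap (1.33), the syntaxin Stx11 (1.17) and the ubiquitin ligase Rffl (1.14), which overlaps Lig3. These 9, with Gm43302, Ptpn22, Icosl and Blnk above and Slc6a7 below, lay outside the naming rule and were named after their values were seen. Foxh1 was low, at 5.27, 4.99 and 5.37 without TNF and 22.2, 25.5 and 39.5 with it. So was Scin, at 7.58, 11.1 and 5.37 without TNF and 38.8, 32.9 and 36.3 with it. Without SoxC_KO replicate 3 neither Foxh1 nor Scin passed (limma adjusted p = 0.0606 and 0.0501).

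The 9 genes that fell belong to varied families. Galnt9, of the enzymes that start mucin-type O-glycans, dropped from 178, 136 and 164 normalized counts to 18.1, 19.4 and 15.1 (log2 change -3.11, SE 0.22, limma adjusted p = 0.000307). Both groups were tight, and the fall was -3.23, -2.76 and -3.35 by number. Of the 15 GalNAc transferases tested it was the 1 that passed, with a list median of -0.27. Adra1d, an alpha-1 adrenergic receptor, fell from 674, 459.9 and 865 to 111, 226 and 180.2 (-1.96), with the smallest difference for number 2. Scara5, a receptor for ferritin, fell from 98.0, 114 and 83.2 to 31.1, 34.7 and 40.8 (-1.44). Lmod1, leiomodin of smooth muscle actin filaments, fell from 2248, 1795 and 2206 to 972, 1045 and 718 (-1.20). The groups of all 4 genes were apart, which the naming rule requires. The others were the proline transporter Slc6a7 (-2.41, at 1.94 to 7.72 with TNF), Crocc2 (-1.83), the arylsulfatase Arsi (-1.46) and the leucine-rich repeat protein Lingo3 (-1.45), with Dio3 as above.

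**Figure D4:**
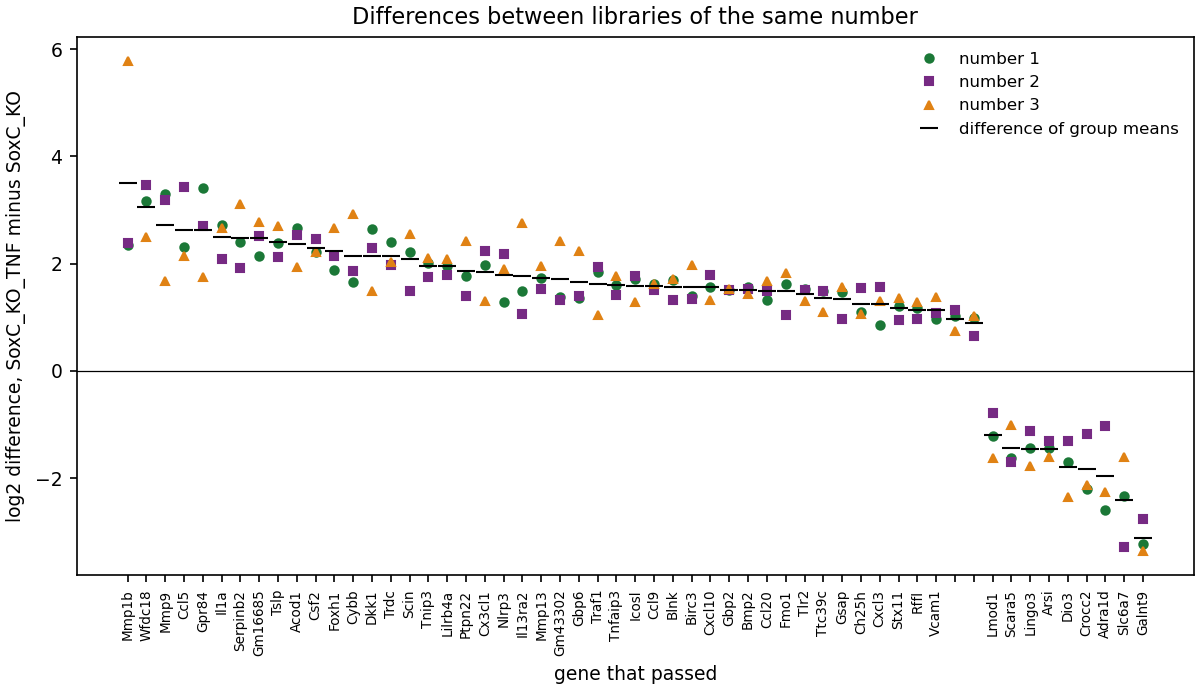
For each of the 55 genes that passed by limma, the log2 difference between SoxC_KO_TNF and SoxC_KO libraries of number 1 (green circles), 2 (purple squares) and 3 (orange triangles), and the difference of the group means (black bars). Genes with a change of at least 1 in size are named on the axis. All 165 differences have the sign of their bar, which must follow because the groups of none of these genes overlap. Mmp1b for number 3 stands highest at 5.77.

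Contractile and matrix genes gave 1 call without the block. Of 21 contractile genes 1 fell, Lmod1, 1 had a change above 0 and the median was -0.43. Over all genes tested 48.9% had a change above 0, and with the block 1.96% rose and 1.1% fell. At an unadjusted limma p under 0.05 lay 7.51% of all genes tested. With the block calponin (Cnn1), at 6226, 6898 and 8693 without TNF and 3334, 4129 and 2995 with it (-1.06), and Actg2 (-0.85), Tpm2 (-0.84) and Mylk (-0.69) fell as well. Of 24 collagens 0 passed by limma (2 at an unadjusted p under 0.05), 2 had a change above 0 and the median was -0.53, but -0.10 without SoxC_KO_TNF replicate 3. Col5a1, a chain that sets fibril diameter, had overlapping groups (78856, 63446 and 33077, then 41068, 52522 and 11724) and fell only with the block, as did Col8a2, Col2a1 and Col6a2. Each number of Col5a1 was lower with TNF. Without SoxC_KO_TNF replicate 3 the change of Col5a1 went from -0.90 to -0.24 and that of Col2a1 from -1.01 to -0.31. Of 35 matrix glycoproteins and proteoglycans 0 passed by limma (8 at an unadjusted p under 0.05), 9 had a change above 0 and the median was -0.22. With the block elastin (Eln, -1.73, but -0.96 without SoxC_KO_TNF replicate 3) and Comp (-0.88) fell and decorin (Dcn, 0.96) rose. Of 14 chondrocyte and osteoblast genes 0 passed by limma (3 at an unadjusted p under 0.05), and with the block the osteoblast factor Sp7 (-1.85, but -1.18 without SoxC_KO_TNF replicate 3) and alkaline phosphatase Alpl (-1.02) fell and Sox5 (1.55, but 0.55 without SoxC_KO replicate 3) rose. Adipocyte markers summed to between 120.4 and 175.9 without TNF and 56.6 and 74.2 with it (exact permutation p = 0.1). None of the 2 tested passed without the block and 1 fell with it. Most of the adipocyte sum was Plin4 (115.9, 97.2 and 163.8 without TNF, 46.2, 45.6 and 63.65 with it), and Adipoq stayed at or below 5.92. Epithelial markers summed to between 601.9 and 999.8 without TNF and 277.5 and 537.9 with it (exact permutation p = 0.1), and 0 of the 6 tested passed with or without the block. Krt19 (325, 307.5 and 521 without TNF, 201, 230 and 189 with it) and Krt8 (155, 213 and 271, then 176, 171 and 40.4) made up most of the epithelial sum. Epcam had overlapping groups (8.63, 7.46 and 17.9, then 26.7, 10.2 and 4.98). The 2 sums thus mostly follow a few genes. Whether they reflect adipocyte or epithelial content, and the part of such cells in the falls above, was not tested.

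Beside Dkk1, none of the other 23 Wnt ligands and antagonists passed, and the list median was -0.33. With the block Wnt4 (-1.24), Notum (-0.92), Sfrp2 (-0.86), Sfrp1 (-0.61) and Dkk3 (-0.48) fell. Of all genes tested, 1.96% rose and 1.1% fell with the block, and 7.51% lay at an unadjusted limma p under 0.05. Among antagonists of bone morphogenetic proteins, Grem1 (5628, 6554 and 3332 without TNF, 11524, 10574 and 13054 with it) rose and Chrd (-1.04) fell only with the block. Of 7 genes of IGF binding 0 passed by limma without the block (2 at an unadjusted p under 0.05), and Igfbp3, a carrier of insulin-like growth factors, rose with it (0.71). In the lists of hyaluronan and lubricin genes (11 tested), cell cycle (26) and cholesterol and fatty acid synthesis (20) 0 genes passed with or without the block (limma). At an unadjusted limma p under 0.05 without the block were 0, 0 and 1 of them. The members with the highest mean normalized count, Cemip (0.48), Cdkn1a (-0.34) and Scd2 (-0.29), had overlapping groups. Of 24 immediate early and AP-1 genes, Nr4a2 (1.25) and Nr4a3 (1.16) rose with the block only. Among 23 genes of glycolysis and hypoxia Adm (0.62) joined Egln3 with it. Of 11 scavenger receptors Olr1 (1.77) and Msr1 (1.41) rose with the block, opposite to Scara5. Of 17 amine receptors Adra1b (-1.16) and Adra2a (-0.77) fell with it and the serotonin receptor Htr2a (1.46, but 0.61 without SoxC_KO replicate 3) rose.

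The response was set beside that of control cells, whose groups share no library with it but enter the same estimate of spread. All 55 genes had the same sign in control cells, and 34 passed there too, 31 of the 46 that rose and 3 of the 9 that fell. For comparison, 53 genes rose (0.309%) and 6 fell (0.035%) in control cells, so the shared genes are 58.5% and 50% of those lists. The change was larger in knockout than in control cells for 34 of the 46 and for all 9. These were chosen for passing in knockout cells, which favours larger values there. For Galnt9 the change was -3.11 against -2.48, for Il1a 2.49 against 1.86, for Ccl5 2.63 against 3.28 and for Wfdc18 3.05 against 3.65. The test of the difference itself called 0 of 17155 genes (limma interaction, smallest adjusted p = 0.878), with 242 genes (1.41%) at an unadjusted p under 0.05. With the block it also called 0, with 3054 genes (17.8%) at an unadjusted p under 0.05.

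Among the 55, 3 had an unadjusted limma interaction p under 0.05. The change of Lingo3 was -1.45 in knockout cells and -0.19 in control cells, that of Scin 2.09 against 0.77 and that of Slc6a7 -2.41 against -1.14. All had a limma adjusted p of 0.878. None of these held after adjustment, and a p that misses the threshold does not show that the responses were alike. Without the libraries with liver transcripts 1 gene passed (0.00583%), Fam219aos, named after its values were seen, with an interaction of -6.13 (limma adjusted p = 0.00823). In SoxC_KO it was at 31.2, 43.4 and 47.8 normalized counts, and with TNF it was listed at 0 in replicates 2 and 3 and stood at 23.9 in replicate 1.

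**Figure D5:**
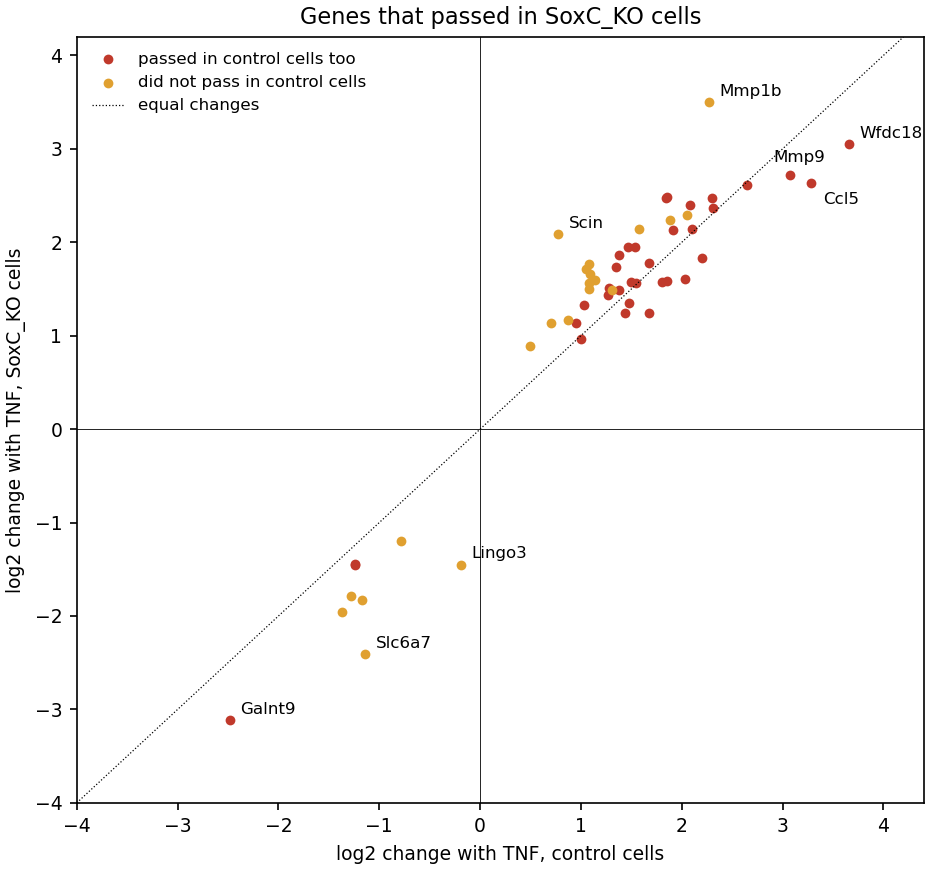
Log2 change with TNF in control cells (horizontal) and in SoxC knockout cells (vertical) of the 55 genes that passed by limma in knockout cells. Red points passed in control cells too (34), orange points did not, and the dotted line marks equal changes. All points lie in the quadrants where both changes have the same sign, and Lingo3 lies closest to a control change of 0, at -0.19.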

How the data were processed

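mRNA was measured in 12 libraries of cultured mouse synoviocytes. The deposited table holds values the authors normalized, on the log2 scale. Per the submitters' processing notes, DESeq was among the tools and mm10 was the build. The aligner, the annotation and the use of strand were not given in the sources used here. Because the design had assumed linear values, the log2 values were raised to the power of 2, with 0 kept as 0. Whole reads were not recovered, so no count model was run and depth was estimated from the commonest low value. Shallower libraries carry more error in low genes.

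With R 4.3.3 and limma 3.58.1, 1 mean per group was fitted to log2(normalized count + 1) of all 12 libraries, with an intensity trend. The pseudocount of 1 understates changes of low genes. Adjustment was by Benjamini-Hochberg over the 17155 genes kept, at 0.05. The fit was run on simulated counts with the same relative spread for every gene and no library that stood apart, unlike these data. That run was a check of the code only. Single values were compared by two-sided exact permutation tests. Figures used Python 3.11.15 and matplotlib 3.10.9.

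Sample titles gave the groups and the replicate numbers. Deviations from the group means correlated at 0.387, 0.166 and 0.534 for numbers 1, 2 and 3. Each exceeds 0.1, so the numbers were read as pairs and the fit with the replicate block is given beside the other. SoxC_KO replicate 2 correlated better with SoxC_KO_TNF replicate 1 (0.450) than with its own number. SoxC_KO replicate 1 correlated with SoxC_KO_TNF replicate 2 (0.167) as well as replicate 2 did. Libraries numbered 3 stood apart, which alone gives such correlations.

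The comparison, its genes and all gene lists were chosen with earlier results of these data known. The rule for names took, in each direction, the 15 largest changes among genes that passed, had no overlap between the groups and averaged 50 or more in the higher one (no clones, pseudogenes or antisense genes), plus up to 6 members per list that passed without the block and 6 with it, or else the most abundant member, and always the SOXC genes, Rela, Nfkb1, Tnf and its receptors. Some are left out for length, and a few genes are not reported here, though counts and medians include them. Alternatives covered the pseudocount, filters, scaling, trend, library weights, block, libraries fitted and each library left out.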

Additional observations from a re-analysis of the deposited data

How the results depend on the processing

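Counts are given as genes that rose and genes that fell, against 46 and 9. With the replicate block they were 337 and 189, and with library weights 618 and 363. A fit to only the 6 knockout libraries gave 1 and 2, and with the block 26 and 5. Without the 4 libraries numbered 3 they were 165 and 30 (116 and 17 with the block), and without the 2 libraries with liver transcripts 5 and 5 (113 and 38 with the block). The fits that join a left-out set with the block were chosen after seeing the data. Leaving out 1 library at a time gave 12 to 49 genes that rose and 2 to 9 that fell. Other pseudocounts, filters, scalings and a fit with no trend gave 38 to 54 and 6 to 10. The interaction called 0 genes in every fit except those without the liver libraries, which called 1 each without and with the block, and 0 to 0 with 1 library left out. The causes of these shifts were not tested. Of 41 named genes that passed, over 28 alternatives each, 864 calls were kept, 284 were lost and no change reversed. Galnt9 kept its call in all, while Lingo3 lost its call in 20, Egln3 in 18, and Mmp1b and Traf1 in 17. Without the liver libraries the genes that passed were Serpinb2, Gm16685, Ccl5, Trdc, Acod1 and Galnt9 of the 55, and outside it, among others, the lower genes Sis, Fam219aos and Olfm4, named after their values were seen. List medians moved by more than their spread in 20 of 924 cases.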

Other observations

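Genes outside every list that passed only with the replicate block (limma) were looked through for size, and those given here are named after their values were seen. The glutamate transporter Slc1a3 was at 852, 867 and 315 normalized counts in SoxC_KO replicates 1 to 3 and at 283, 268 and 86.1 with TNF (-1.71, limma adjusted p = 9.2e-05 with the block and 0.483 without). Lrrc17, a secreted leucine-rich repeat protein, was at 1015, 1197 and 544 without TNF and at 326, 329 and 105 with it (-1.95). In both genes SoxC_KO replicate 3 and its counterpart with TNF were the lowest of their groups, and no libraries overlapped. The arginine transporter Slc7a2 had a mean of 4111 without TNF and 12756 with it (1.74, but 1.14 without SoxC_KO replicate 3), and the kinase Jak2, which carries signals of cytokine receptors, 1711 and 4447 (1.59, but 0.87 without SoxC_KO replicate 3). Both were higher with TNF in all 3 libraries than in any without.

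Some transcripts were listed at exactly 0 in most libraries with TNF, which in normalized values can be a failed estimate. Gm16439 was at 124, 119 and 81.2 without TNF and listed at 0 in all 3 libraries with it. In the fit to all 12 libraries it passed only with the block. In the fit to only the 6 knockout libraries it passed without the block (limma adjusted p = 0.0109). Sis and Olfm4, each above 17 in every SoxC_KO library, were listed at 0 in SoxC_KO_TNF replicates 2 and 3 and stood at 22 and 36.2 in replicate 1, the library with liver transcripts. Whether their values in that library and the liver transcripts share a source was not tested.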
